A study of Mus musculus with 12 samples.

Results

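A set of 10 genes that brake or drive entry into the cell cycle were followed through the mouse heart: the CDK inhibitors Cdkn1a, Cdkn1b and Cdkn1c, the stress sensors Gadd45a, Gadd45b and Gadd45g, the regulator Rgcc, the p53 antagonist Mdm2, and the D-type cyclins Ccnd1 and Ccnd2. They were taken by gene symbol, and each was listed in all 12 samples. The members and the lists used below were chosen with earlier results of these data known. Their counts beside those of all tested genes are thus a description and not a test. All 10 were among the 12526 genes tested, of 33641 genes listed.

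D-type cyclins activate cyclin-dependent kinases (CDKs), which push a resting cell towards DNA synthesis, and the Cdkn1 proteins bind and block cyclin-CDK complexes. Cdkn1a is a classic target of the tumour suppressor p53, and Mdm2 marks p53 for degradation. The Gadd45 proteins respond to stress and DNA damage, bind CDK and MAP kinase partners, and act in cell cycle arrest and DNA repair. Adult cardiomyocytes seldom divide.

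The study compared hearts of mice in which the coding sequence of phospholamban (PLN), the brake on the cardiac calcium pump, was replaced by human sequence, either normal (WT-PLN) or lacking arginine 14 (R14del-PLN). Messenger RNA from the left ventricle (LV) and right ventricle (RV) was sequenced, with 3 samples in each of the 4 groups. Mice were 12 to 14 weeks old, and the labels give the strain as C57BL/6J. The paper describes a hybrid line made from chimeras bred to Sox2-Cre mice, and R14del-PLN mice that carried the mutant sequence in the heterozygous state. Both genotypes thus carry human PLN, and no mouse with the native gene was included. Whole ventricle was used, so in these bulk samples fewer cells of a type and less RNA per cell cannot be told apart. The labels do not say whether replicates came from separate animals, and p-values measure only the spread between these samples.

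Values are in TPM, a share of all transcripts corrected for gene length, so levels of different genes can be compared. Sequencing depth is unknown from TPM. Between 17924 and 18879 genes were above 0 in a sample, and mitochondrially encoded genes held 37.3% of the total in LV R14del-PLN replicate 3 and 44.0 to 54.5% in the other samples. The paper used male mice, but in both WT-PLN replicate 1 samples the Y-linked genes were at 0.0159 to 0.191 TPM, whereas they ranged from 3.03 to 30.6 TPM elsewhere. RV R14del-PLN replicate 3 was sequenced in run 143 and the other samples in run 136. Run 143 thus held only that sample, and run and sample cannot be told apart. Changes are given as log2 fold changes on the scale log2(TPM + 1), which understates the change of low genes, and were tested with limma across all tested genes with Benjamini-Hochberg adjustment. Called genes had an adjusted p no higher than 0.05 and changed by 1.5-fold or more.

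Rgcc and Cdkn1a stood apart by genotype. Rgcc was lower in R14del-PLN than in WT-PLN hearts in both ventricles, at 36.4% of the WT-PLN mean in LV and 39.8% in RV. Cdkn1a was at 27.3% in LV, where it was called, and at 28.6% in RV, where its adjusted p was just above the threshold. In LV, 2 of the 10 genes were called, both lower, against 0.519% of all tested genes called in either direction and 0.423% called lower. In RV, 1 of 10 was called, against 0.271% in either direction and 0.2% lower. The other 8 members were called in neither ventricle.

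**Figure D1:**
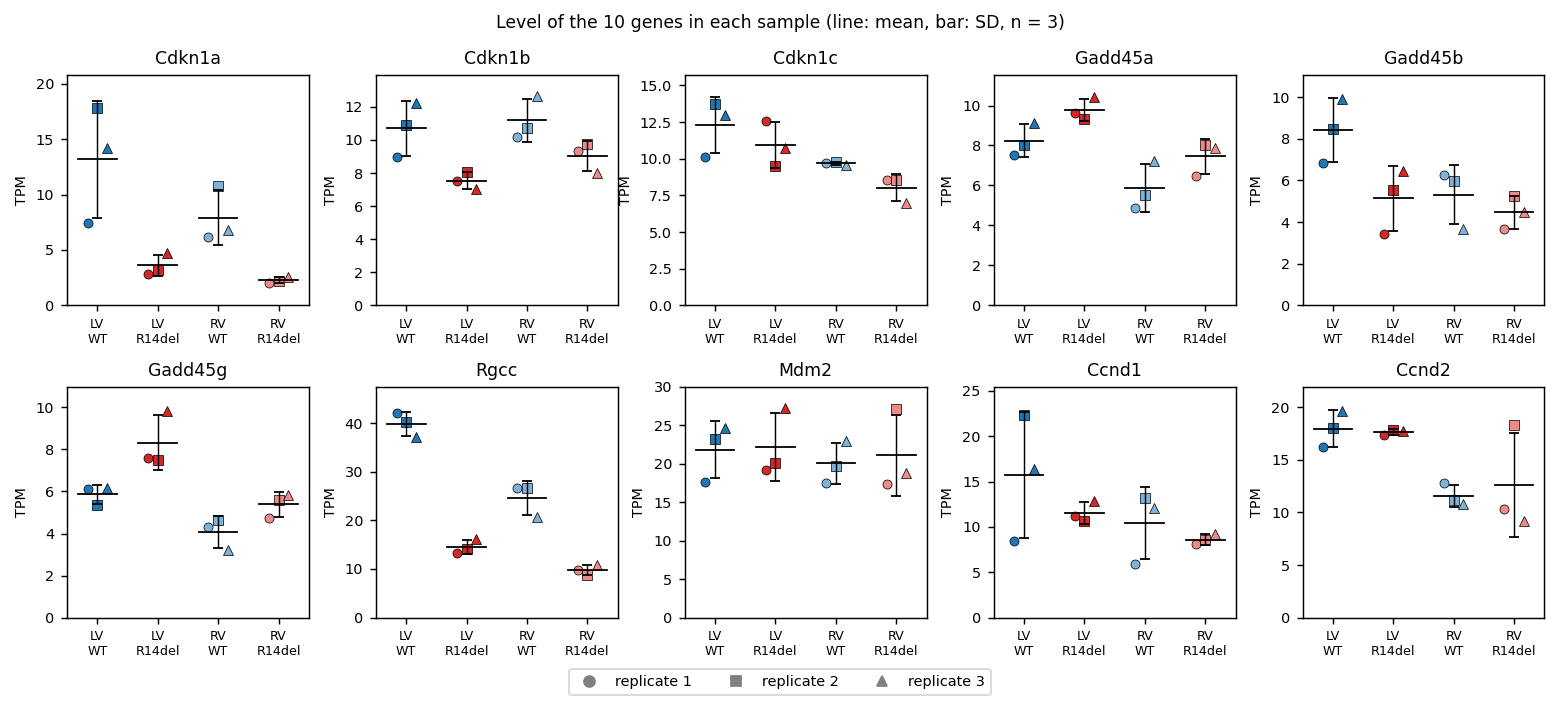
TPM (vertical axis, from 0) of each of the 10 genes in the 12 samples, by ventricle and genotype, with the mean as a line, the SD as a bar (n = 3) and a symbol for each replicate number. Rgcc and Cdkn1a sit lower in R14del-PLN than in WT-PLN samples in both ventricles with no overlap, while Mdm2 and Ccnd2 overlap between genotypes in both.

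Cdkn1a encodes p21, an inhibitor of cyclin-CDK complexes. The gene lies on chromosome 17 of GRCm38 from 29090976 to 29100727 on the plus strand. RefSeq (GRCm38.p6) gives it more than 1 start, and the 250 bases before a pair of these are shown because Cdkn1a is the called member best known as a p53 target. The upstream window is chr17:29090729-29090978 and the downstream window chr17:29093519-29093768, both on the plus strand. Capitals mark the p53 repeat unit in the upstream window and the GC box in the downstream window, which is GGGCGG.
Cdkn1a upstream start: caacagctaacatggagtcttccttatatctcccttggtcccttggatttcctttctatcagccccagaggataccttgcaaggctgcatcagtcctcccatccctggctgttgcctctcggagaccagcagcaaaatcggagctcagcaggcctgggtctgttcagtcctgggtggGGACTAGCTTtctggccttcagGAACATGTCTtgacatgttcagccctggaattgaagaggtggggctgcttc
Cdkn1a downstream start: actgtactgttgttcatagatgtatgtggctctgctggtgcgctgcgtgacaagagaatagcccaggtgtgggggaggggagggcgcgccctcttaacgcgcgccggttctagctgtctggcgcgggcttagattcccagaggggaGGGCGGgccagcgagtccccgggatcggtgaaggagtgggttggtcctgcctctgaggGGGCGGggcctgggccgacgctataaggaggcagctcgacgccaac

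The upstream window held 2 matches to the p53 repeat unit, 51 and 73 bases before the start, and 54% GC. Of 32851 such windows of all genes, 7.13% held at least 1 match, and the median GC content was 52.4%. The downstream window held 2 GC boxes, 46 and 104 bases before its start, and 64.8% GC, where 32.7% of all windows held a GC box. Both strands were searched, and windows of neighbouring starts can overlap. Neither window held the TATA box (letters TATAAA, found in 12.4% of all windows), the CCAAT box (letters CCAAT, in 33.8%), the E-box (letters CACGTG, in 6.02%), the cAMP response element (letters TGACGTCA, in 1.55%) or the glucocorticoid response element (in 0.387%). Of the 10 members, 7 had such a window. Those of Gadd45a and Mdm2, which were not called, each held 1 match to the p53 repeat unit. These lay 40 and 186 bases before the start. Whether such matches bear on the levels was not tested.

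In WT-PLN hearts, Cdkn1a was at 7.44, 17.9 and 14.3 TPM in LV replicates 1, 2 and 3, and at 6.17, 10.8 and 6.78 TPM in RV. In R14del-PLN hearts, it was at 2.85, 3.23 and 4.72 TPM in LV and at 2.00, 2.23 and 2.56 TPM in RV. Each R14del-PLN sample was below each WT-PLN sample of its ventricle, and the WT-PLN samples were widely spread, with the lowest level in replicate 1 in both ventricles. In LV the mean went from 13.2 ± 5.29 TPM (SD, n = 3) in WT-PLN to 3.60 ± 0.989 TPM (SD, n = 3) in R14del-PLN, which is a log2 fold change of -1.57 (SE 0.268, 95% confidence interval -2.15 to -0.99, adjusted p = 0.0198 by limma). In RV the mean was 7.90 ± 2.49 TPM in WT-PLN and 2.26 ± 0.282 TPM in R14del-PLN (SD, n = 3 each), a log2 fold change of -1.42 (SE 0.268, 95% confidence interval -1.99 to -0.84, limma adjusted p = 0.0507). The exact permutation p was 0.1 in each ventricle, the smallest that 3 samples against 3 can give.

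The direction of Cdkn1a held in both ventricles in each of 26 alternative fits, but the call did not. The LV call was lost without WT-PLN replicate 2 or 3 (limma adjusted p = 0.101 and 0.0984), without R14del-PLN replicate 1 or 2 (0.119 and 0.0955) and with no filter on low genes (0.109). In RV, Cdkn1a was called in 15 of the 26 fits, but in none that left out 1 RV sample alone (limma adjusted p from 0.0519 to 0.252). Without both WT-PLN replicate 1 samples, it was called in both ventricles, at -1.90 in LV and -1.56 in RV (adjusted p = 0.000767 and 0.00416 by limma). With RV R14del-PLN replicate 3 left out as well, the values were -1.90 (limma adjusted p = 0.00173) and -1.62 (limma adjusted p = 0.0122).

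Cdkn1b encodes p27, which holds resting cells out of the cycle. It lies on chromosome 6 from 134920401 to 134925513 on the plus strand. In LV it was at 8.95, 10.9 and 12.3 TPM in WT-PLN and at 7.53, 8.05 and 7.04 TPM in R14del-PLN samples. In RV it was at 10.2, 10.7 and 12.6 TPM in WT-PLN and at 9.34, 9.74 and 7.99 TPM in R14del-PLN samples. In both ventricles the R14del-PLN samples lay below the WT-PLN samples, but the log2 fold changes of -0.45 (SE 0.137, LV) and -0.28 (SE 0.137, RV) did not pass the test (limma adjusted p = 0.251 and 0.831). Cdkn1c encodes p57, an imprinted inhibitor with a role in development, and lies on chromosome 7 from 143458339 to 143461050 on the minus strand. It was at 10.1, 13.8 and 13 TPM in LV of WT-PLN and 12.6, 9.51 and 10.8 TPM in LV of R14del-PLN samples, with overlap. In RV the 3 WT-PLN samples lay close together, at 9.73, 9.77 and 9.57 TPM, and above the R14del-PLN samples at 8.57, 8.54 and 6.99 TPM. The log2 fold changes of Cdkn1c were -0.15 in LV and -0.25 in RV (limma adjusted p = 0.808 and 0.943).

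Within the Cdkn1 family, Cdkn1a held 35.4 ± 7% of the summed TPM in WT-PLN and 16.3 ± 4.33% in R14del-PLN samples of the LV (SD, n = 3 each). In the RV its share was 27.2 ± 6.30% and 11.8 ± 2.42% (SD, n = 3 each). The share separated the genotypes, at 28.1 to 42.0% against 12.4 to 21.0% in LV and at 23.4 to 34.4% against 10 to 14.6% in RV. The summed level of the family was 36.2 ± 8.51 TPM in LV and 28.8 ± 2.57 TPM in RV for WT-PLN, and 22.1 ± 1.16 and 19.3 ± 1.57 TPM for R14del-PLN (SD, n = 3 each). Cdkn1c held 49.5 ± 4.76% in LV and Cdkn1b 46.7 ± 0.988% in RV of R14del-PLN hearts, the largest mean share of the family in each.

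**Figure D2:**
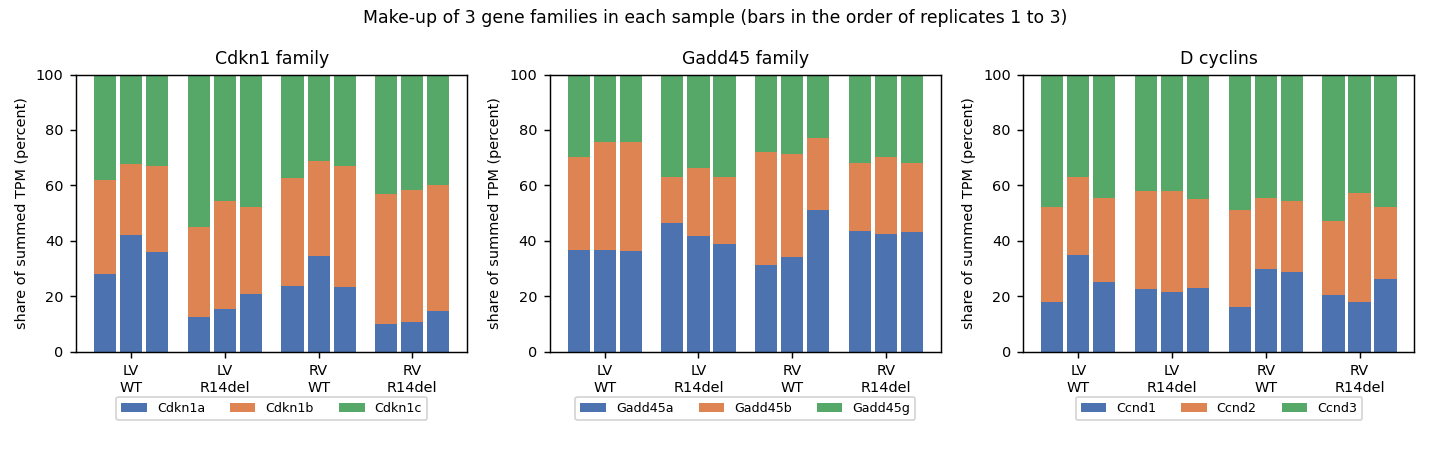
Share of the summed TPM (percent, vertical axis) that each gene holds in the Cdkn1 family, the Gadd45 family and the D cyclins, with 1 stacked bar per sample in the order of replicates 1 to 3. The Cdkn1a share lies at 28.1 to 42.0% in LV of WT-PLN and 12.4 to 21.0% in LV of R14del-PLN samples, and Ccnd3 holds the largest mean share of the D cyclins in all 4 groups.

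Gadd45a lies on chromosome 6 from 67035096 to 67037457 on the minus strand and is itself a known p53 target. It was at 7.54, 8.03 and 9.14 TPM in LV of WT-PLN and at 9.63, 9.32 and 10.4 TPM in LV of R14del-PLN samples, without overlap. The RV values were 4.86, 5.53 and 7.22 TPM in WT-PLN and at 6.46, 8.05 and 7.89 TPM in R14del-PLN samples, with overlap. The log2 fold changes of 0.23 (SE 0.143) and 0.31 (SE 0.143) did not pass the test (limma adjusted p = 0.680 and 0.801).

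Gadd45g, a member induced by cytokines and stress, lies on chromosome 13 from 51846678 to 51848468 on the plus strand. It was at 6.10, 5.35 and 6.16 TPM in LV of WT-PLN and at 7.60, 7.52 and 9.84 TPM in LV of R14del-PLN samples. In RV it was at 4.33, 4.66 and 3.23 TPM in WT-PLN and at 4.72, 5.62 and 5.82 TPM in R14del-PLN samples. The R14del-PLN samples were the higher ones in both ventricles without overlap, at log2 fold changes of 0.43 (SE 0.147, LV) and 0.34 (SE 0.147, RV), which did not pass the test (limma adjusted p = 0.306 and 0.757).

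Gadd45b, an early gene of stress and transforming growth factor signals, lies on chromosome 10 from 80930073 to 80932204 on the plus strand, 27.6 Mb from Pln. It was at 6.86, 8.46 and 9.92 TPM in LV of WT-PLN and at 3.42, 5.55 and 6.44 TPM in LV of R14del-PLN samples. The RV values were 6.28, 6.00 and 3.67 TPM in WT-PLN and at 3.68, 5.24 and 4.50 TPM in R14del-PLN samples. The genotypes did not overlap in LV and did in RV. The log2 fold change was -0.64 (SE 0.220) in LV and -0.19 (SE 0.220) in RV, and neither passed the test (limma adjusted p = 0.316 and 1). Its share of the family sum was 37.2 ± 3.22% (WT-PLN) and 21.8 ± 4.58% (R14del-PLN) in LV, and 34.6 ± 7.61% and 25.7 ± 1.73% in RV (SD, n = 3 each). The family sum itself was 22.5 ± 2.43 TPM in WT-PLN and 23.2 ± 3.10 TPM in R14del-PLN samples of the LV (SD, n = 3 each).

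Rgcc, the regulator of cell cycle, binds a mitotic CDK and is induced by complement and transforming growth factor signals. It was the member with the highest mean over the 12 samples, at 22.2 TPM. The gene lies on chromosome 14 from 79288756 to 79301645 on the minus strand. The 250 bases before its RefSeq start (GRCm38.p6, chr14:79301636-79301885, minus strand) are shown because Rgcc was called in both ventricles, with the GC box in capitals as GGGCGG, or in its reverse complement.
Rgcc: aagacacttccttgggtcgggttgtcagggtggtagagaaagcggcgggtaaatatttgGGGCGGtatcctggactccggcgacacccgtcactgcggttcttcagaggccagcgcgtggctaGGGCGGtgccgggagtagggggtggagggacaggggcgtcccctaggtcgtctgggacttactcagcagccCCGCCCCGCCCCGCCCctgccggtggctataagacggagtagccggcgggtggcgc

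The window held 5 GC boxes between 46 and 191 bases before the start, of which neighbouring ones run together, and had 66.8% GC. None of the other motifs searched, the p53 repeat unit and the glucocorticoid response element included, had a match in these letters.

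In LV, Rgcc was at 42.0, 40.3 and 37.2 TPM in WT-PLN and at 13.3, 14.1 and 16.1 TPM in R14del-PLN samples. In RV it was at 26.6, 26.7 and 20.7 TPM in WT-PLN and at 9.86, 8.74 and 10.8 TPM in R14del-PLN samples. The 4 groups did not overlap with each other, in the order LV WT-PLN, RV WT-PLN, LV R14del-PLN and RV R14del-PLN. In LV the mean went from 39.8 ± 2.44 to 14.5 ± 1.42 TPM (SD, n = 3 each), a log2 fold change of -1.40 (SE 0.133, 95% confidence interval -1.68 to -1.11, limma adjusted p = 0.000137). In RV it went from 24.7 ± 3.46 to 9.80 ± 1.04 TPM (SD, n = 3 each), a log2 fold change of -1.24 (SE 0.133, 95% confidence interval -1.53 to -0.96, limma adjusted p = 0.000483). By unadjusted p, Rgcc ranked 8 in LV and 9 in RV among all tested genes. It was called in both ventricles in each of 26 alternative fits, with log2 fold changes from -1.47 to -1.27 in LV and from -1.36 to -1.17 in RV. Without both WT-PLN replicate 1 samples the values were -1.36 and -1.18 (limma adjusted p = 0.00103 and 0.00339).

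**Figure D3:**
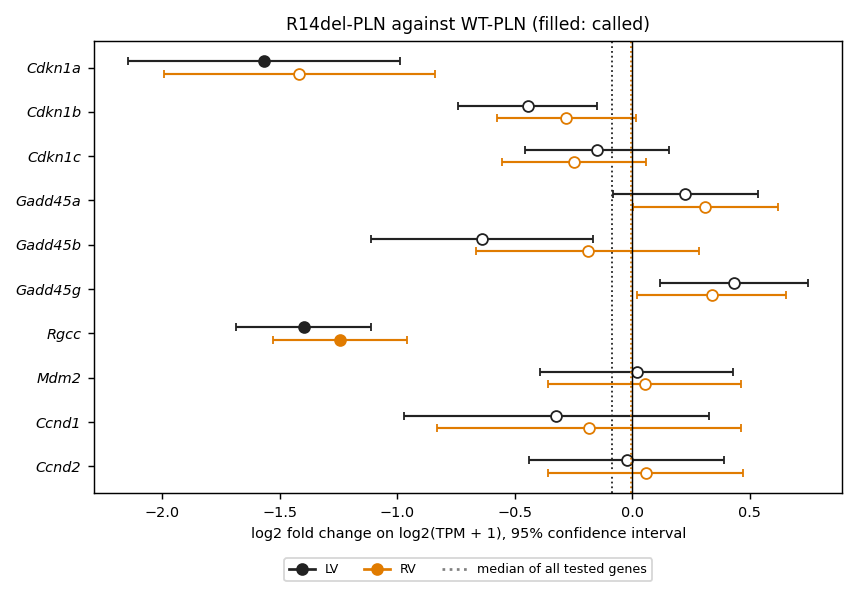
Log2 fold change of R14del-PLN against WT-PLN on log2(TPM + 1) with its 95% confidence interval (horizontal axis) for each member in LV and RV, filled where called, with the median of all tested genes as dotted lines. Rgcc in both ventricles and Cdkn1a in LV are filled, and Cdkn1a in RV lies at -1.42 with an open symbol.

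Mdm2, which is both an inhibitor and a target of p53, lies on chromosome 10 from 117688875 to 117710758 on the minus strand, 64.3 Mb from Pln. It was at 17.6, 23.2 and 24.7 TPM in LV of WT-PLN and at 19.2, 20.1 and 27.2 TPM in LV of R14del-PLN samples. The RV values were 17.6, 19.7 and 22.9 TPM in WT-PLN and at 17.4, 27.2 and 18.8 TPM in R14del-PLN samples. The genotypes overlapped in both ventricles. Its log2 fold changes were 0.02 (95% confidence interval -0.39 to 0.43) in LV and 0.05 (-0.36 to 0.46) in RV, and the sign turned under some alternatives (limma adjusted p = 0.985 and 1).

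Ccnd1, the D-type cyclin induced by growth factors, lies on chromosome 7 from 144929931 to 144939925 on the minus strand. In WT-PLN hearts it was at 8.40, 22.3 and 16.4 TPM in LV and at 5.94, 13.2 and 12.1 TPM in RV. In R14del-PLN hearts it was at 11.2, 10.6 and 12.9 TPM in LV and at 8.06, 8.51 and 9.23 TPM in RV. As for Cdkn1a, replicate 1 was the lowest and replicate 2 the highest of the WT-PLN samples in both ventricles. The log2 fold changes of -0.32 (95% confidence interval -0.97 to 0.33) and -0.19 (-0.83 to 0.46) did not pass the test (limma adjusted p = 0.801 and 1).

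Ccnd2, another D-type cyclin, lies on chromosome 6 from 127125162 to 127152193 on the minus strand. It was at 16.2, 18.1 and 19.7 TPM in LV of WT-PLN and at 17.3, 17.8 and 17.7 TPM in LV of R14del-PLN samples. In RV it was at 12.8, 11.2 and 10.8 TPM in WT-PLN and at 10.4, 18.3 and 9.20 TPM in R14del-PLN samples, where replicate 2 alone lay above all WT-PLN samples of the RV. The log2 fold changes were -0.02 in LV and 0.06 in RV (limma adjusted p = 0.982 and 1), and both turned sign under some alternatives. Ccnd3, which is not a member, held the largest mean share of the summed D cyclins in all 4 groups, from 43.0 to 47.8%.

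Across the 10 members, WT-PLN and R14del-PLN samples were fully separated for 6 in LV, against 11% of all tested genes, and 4 of these were lower in R14del-PLN, against 8.47%. In RV they were separated for 5, against 11%, and 4 of these were lower, against 5.79%. An unadjusted p of at most 0.05 was reached in LV by 5 members, against 9.6%, of which 4 were lower, against 7.85%. In RV it was reached by 4 members, against 6.22%, of which 2 were lower, against 3.4%. The median log2 fold change of the members was -0.24 in LV and -0.19 in RV, and that of all tested genes -0.086 and -0.0034. The difference between the genotype effects of RV and LV was tested as an interaction. No tested gene was called, 127 genes or 1.01% had an unadjusted p of at most 0.05, and 0 members did. The interaction was 0.15 (95% confidence interval -0.67 to 0.97) for Cdkn1a and 0.16 (-0.25 to 0.56) for Rgcc, and the largest among the members was 0.45 (-0.22 to 1.12) for Gadd45b (limma adjusted p = 1.00 for each). The Cdkn1a call in LV is thus not shown to differ from its value in RV.

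Other genes of these pathways were read from lists. Of the 22 p53 target genes listed, 21 were tested, and 1 was called, lower in both ventricles. At an unadjusted p of at most 0.05, 5 were lower and 1 higher in LV, and 3 lower and 1 higher in RV, where 7.85% and 3.4% of all tested genes were lower. The called gene was Sesn1, a stress-induced inhibitor of growth signalling. Sesn1 was at 73.7 TPM in WT-PLN and 43.6 TPM in R14del-PLN in LV (log2 fold change -0.75, limma adjusted p = 0.0120). In RV it was at 68.7 and 41.2 TPM (-0.72, limma adjusted p = 0.0168). The median of the p53 targets was -0.10 in LV and -0.019 in RV, against -0.086 and -0.0034 for all tested genes. Of p53 and its regulators, 0 of 4 were called by limma and 1 was lower at an unadjusted p of at most 0.05 in each ventricle. Usp7 and Mdm4, named for their high means, did not reach that threshold in either ventricle. Their log2 fold changes were -0.07 and -0.16 in LV (limma adjusted p = 0.945 and 0.80).

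None of the 8 tested cyclin D partners and pocket proteins, 4 tested E2F factors, 2 tested other CDK inhibitors or 8 GADD45 partner MAP kinases was called by limma in any comparison, and in the genotype comparisons 0 of them had an unadjusted p of at most 0.05. Cdk4, the kinase that D cyclins activate, was at 26.8 and 25.0 TPM in LV and at 19.6 and 20.8 TPM in RV of WT-PLN and R14del-PLN hearts. Of 18 proliferation genes, 9 were tested and 0 called by limma in either ventricle, with 0 at an unadjusted p of at most 0.05. Pcna, the clamp of replicating DNA, was at 18.2 and 17 TPM in LV and 16.8 and 16.2 TPM in RV.

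A pair of other lists had lower values in R14del-PLN hearts together with Cdkn1a and Rgcc. Like the members and the other lists, they were chosen with earlier results of these data known. Of 9 glucocorticoid-induced genes, 6 were called lower in LV and 3 in RV, against 0.423% and 0.2% of all tested genes. Tsc22d3, a mediator of glucocorticoid action, was at log2 fold changes of -1.20 in LV and -1.14 in RV (limma adjusted p = 0.00230 and 0.00422), and Zbtb16 at -1.30 and -1.26 (limma adjusted p = 0.00553 and 0.00897). The summed TPM of the 9 genes was 411 to 626 in LV and 424 to 521 in RV of WT-PLN samples, and 216 to 294 and 191 to 250 in R14del-PLN samples. The 11 early response genes had median log2 fold changes of -1.35 (LV) and -1.19 (RV), against -0.086 and -0.0034 for all tested genes. Of these 11, 0 were called by limma. At an unadjusted p of at most 0.05, 9 in LV and 6 in RV were lower, against 7.85% and 3.4% of all tested genes. The early response sum ran from 74.4 to 390 TPM in LV and 53.5 to 282 TPM in RV of WT-PLN samples, with the lowest value in replicate 1. In R14del-PLN samples it ran from 51.3 to 68.6 TPM in LV and 42.2 to 52.7 TPM in RV. The part of either list in the Cdkn1a and Rgcc values was not tested.

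**Figure D4:**
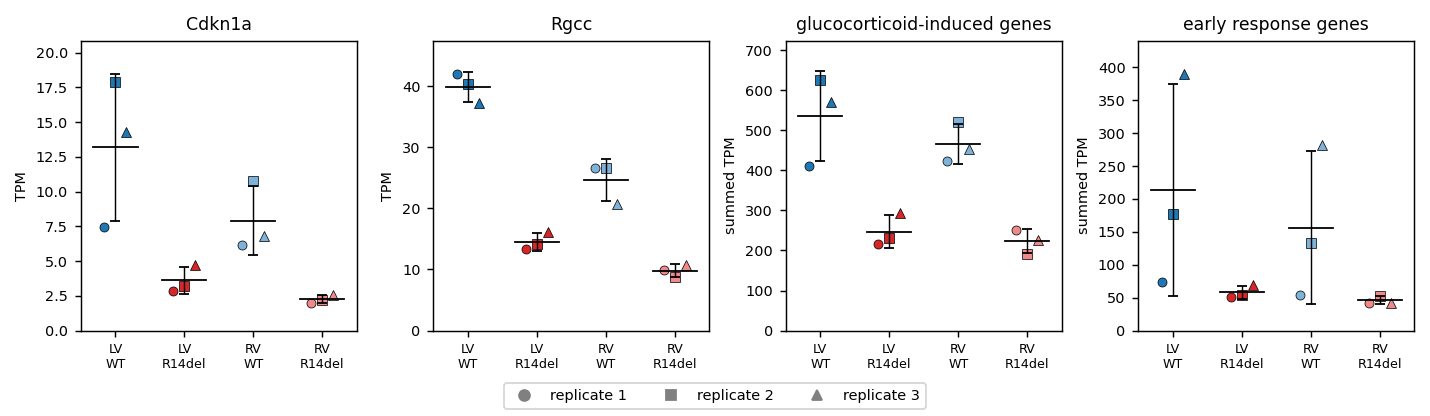
TPM of Cdkn1a and Rgcc and summed TPM of 9 glucocorticoid-induced and 11 early response genes in each sample (vertical axes from 0), with mean, SD (n = 3) and replicate symbols. The glucocorticoid-induced sum separates the genotypes, while the early response sum of WT-PLN replicate 1 lies at 74.4 TPM in LV and 53.5 TPM in RV, close to the R14del-PLN samples.

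Of 8 clock genes that peak with Dbp, 0 were called by limma. In each ventricle 5 were lower at an unadjusted p of at most 0.05, against 7.85% (LV) and 3.4% (RV) of tested genes. Of the 4 tested clock genes of the Bmal1 phase, 1 was higher at that threshold in each ventricle. In either direction, 9.6% (LV) and 6.22% (RV) of tested genes reached it. Of 5 red cell markers, 0 were called by limma. At an unadjusted p of at most 0.05, 4 in LV and 3 in RV were lower, against the same 7.85% and 3.4%. The red cell sum was 2087 to 2316 TPM in LV and 1461 to 1736 TPM in RV of WT-PLN samples, and 1093 to 2142 and 956 to 1368 TPM in R14del-PLN samples. Endothelial markers summed to 614 to 642 TPM in LV of WT-PLN and 548 to 782 TPM in LV of R14del-PLN samples. In RV they summed to 454.9 to 502.6 TPM in WT-PLN and, without overlap, to 503.4 to 628.2 TPM in R14del-PLN samples. Of these 8 markers, 0 were called by limma. At an unadjusted p of at most 0.05, 1 of them was higher and 1 lower in each ventricle. Their part in the member values was not tested. Cardiomyocyte markers summed to between 28118 and 41608 TPM in all samples with 0 of 8 called by limma, and 0 markers of fibroblasts, smooth muscle and pericytes, macrophages or atrial cardiomyocytes were called by limma in either genotype comparison, with 1 fibroblast and 1 atrial marker lower in LV at an unadjusted p of at most 0.05. The atrial sum varied widely between samples, from 45.6 to 1296 TPM.

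The second question was how the members differ between the ventricles. No tested gene was called between RV and LV in WT-PLN hearts (limma, smallest adjusted p = 0.108, 1811 genes at an unadjusted p of at most 0.05, 0% called) or in R14del-PLN hearts (smallest adjusted p = 0.324, 823 genes, 0% called). Of the 10 members, 9 had a lower value in RV in each genotype, the exception being Cdkn1b, although Mdm2 turned higher with other scalings or without mitochondrially encoded genes. An unadjusted p of at most 0.05 was reached by 6 members in WT-PLN and 5 in R14del-PLN, each lower in RV, against 13.8% and 6.07% of all tested genes (14.5% and 6.57% in either direction). The RV and LV ranges did not overlap, with RV lower, for 6 members in each genotype, against 25.2% and 8.72% of tested genes (26.1% and 9.98% in either direction). RV values were low in general, with a median over all tested genes of -0.17 in WT-PLN and -0.076 in R14del-PLN and 85.9% and 70.3% of genes below 0, so differences are also given relative to that median. In WT-PLN samples, mitochondrially encoded genes took up 44.0 to 47.3% of LV totals but 48.7 to 52.7% of RV totals, without overlap. The R14del-PLN shares were 37.3 to 51.2% for LV samples and 51.1 to 54.5% for RV samples. Without these genes the all-gene medians were -0.059 and 0.057, Rgcc was at -0.55 and -0.39, and Mdm2 turned to 0.019 and 0.079. LV R14del-PLN replicate 3 had the lowest mitochondrial share, and without it the R14del-PLN median was 0.024, Rgcc was at -0.45, and Gadd45b and Mdm2 turned to 0.015 and 0.071.

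Rgcc had the smallest p of the members in WT-PLN, at a log2 fold change of -0.68 (95% confidence interval -0.96 to -0.39, limma adjusted p = 0.168), which is -0.51 relative to the median of all genes. In R14del-PLN hearts it was -0.52 (-0.81 to -0.24, limma adjusted p = 0.711), or -0.45 relative to the median. Gadd45g was at -0.45 in WT-PLN and -0.54 in R14del-PLN (limma adjusted p = 0.264 and 0.711), and Ccnd2 at -0.59 and -0.51 (limma adjusted p = 0.260 and 0.737). Cdkn1a was at -0.63 and -0.48 (limma adjusted p = 0.314 and 0.835). Cdkn1b was at 0.06 in WT-PLN and 0.23 in R14del-PLN (limma adjusted p = 0.812 and 0.842). Relative to the median of all genes in WT-PLN and R14del-PLN, Gadd45g was at -0.28 and -0.46 and Ccnd2 at -0.43 and -0.43. On the same scale, Cdkn1a was at -0.46 and -0.40 and Cdkn1b at 0.23 and 0.30. With quantile normalization, the all-gene median in WT-PLN moved to 0.0051, Rgcc to -0.48 and Cdkn1a to -0.45, and Mdm2 turned from -0.11 to 0.077.

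The labels do not say whether RV and LV samples with the same replicate number came from 1 heart. Such samples varied together in WT-PLN, where they were taken as 3 pairs, but less clearly in R14del-PLN, where no pairs were counted. RV was the lower sample in all 3 WT-PLN pairs for 9 members and in 1 of 3 for Cdkn1b, against 58.1% of all tested genes that were lower in all 3. With genotype and replicate number as a fixed block, 12 genes were called between the ventricles of WT-PLN samples, and none was a member. Endothelial markers also had lower values in RV of WT-PLN hearts, with a sum of 455 to 503 TPM against 614 to 642 TPM in LV. Of the 8 markers, 6 were lower in RV without overlap, against 25.2% of all tested genes. The same held for 5 of 5 red cell, 2 of 6 smooth muscle and pericyte, 1 of 7 macrophage and 1 of 8 cardiomyocyte markers. For fibroblast and atrial markers it was 0 of 6 and 0 of 4. Egfl7, an endothelial secreted factor, was at a log2 fold change of -0.63 in WT-PLN (limma adjusted p = 0.168). In R14del-PLN hearts the endothelial sums overlapped, at 503 to 628 TPM in RV and 548 to 782 TPM in LV. The part of these markers in the Rgcc value was not tested.

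**Figure D5:**
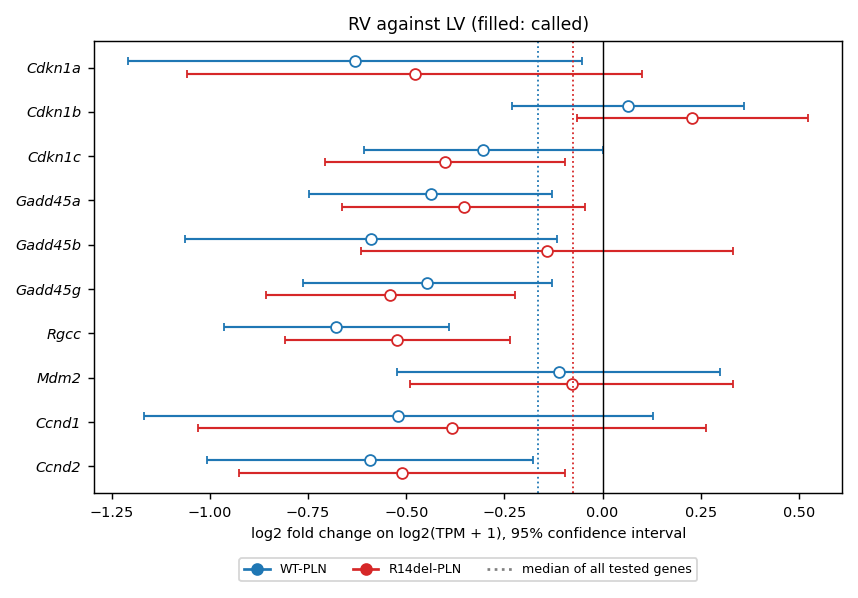
Log2 fold change of RV against LV on log2(TPM + 1) with its 95% confidence interval (horizontal axis) for each member in WT-PLN and R14del-PLN hearts, with dotted lines at the median of all tested genes. All symbols are open because 0 members were called, and 9 of 10 lie below 0 in each genotype, although Mdm2 turned higher with other scalings.

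The genes whose pattern over the 12 samples was most like that of a member were found by Pearson's r of log2(TPM + 1), as a description of samples that share genotype and ventricle. For Rgcc they were Map3k6 (r = 0.961), Entpd6 (r = 0.958) and Gatsl3 (r = 0.955). For Cdkn1a they were Chac1 (r = 0.985), Sorbs3 (r = 0.979) and Tinagl1 (r = 0.979), and for Cdkn1b they were Eya2 (r = 0.914), Ccni (r = 0.913) and Lancl3 (r = 0.913).

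In the annotation, 5 members, Cdkn1a, Cdkn1c, Gadd45a, Ccnd1 and Ccnd2, overlap a gene on the opposite strand, and whether reads were counted by strand is not stated. Parts of Cdkn1a transcripts match short transcripts of other genes at 95% identity or more, among which Gm11032 was listed, at a mean of 1.06 TPM, so reads could be shared between them.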

How the data were processed

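The authors deposited 1 TPM value per gene and sample for 12 mouse ventricle samples, used here as deposited. Per the paper, reads of polyA stranded libraries were mapped to GRCm38 with CLC Genomics Workbench 20.0.2. The annotation and strand setting are not given in the sources used here. TPM holds no depth, so no counting error could be given.

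Genotype, ventricle and replicate number came from the labels, where mutant samples titled KO have the R14del genotype. Log2(TPM + 1) of the 12526 genes that averaged 0.5 TPM or more was fitted with limma 3.58.1 (R 4.3.3, statmod 1.5.0) as 4 group means (8 residual degrees of freedom, 5.15 prior ones, variance trended on level), with Benjamini-Hochberg adjustment over all tested genes, and tested on simulated data. All 10 members are named. From each list, called genes (at most 4) or else the 2 with the highest means could be named. The members and lists were chosen with earlier results of these data known. Annotation was GENCODE for GRCm38, and RefSeq promoter windows were searched with Python 3.11.15. BLAST 2.17.0 found near-identical transcripts.

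Deviations from group means correlated between same-numbered LV and RV samples at 0.657, 0.321 and 0.457 in WT-PLN, which were taken as pairs from these values, and at 0.389, 0.230 and 0.0542 in R14del-PLN hearts, which were not. The alternatives were other pseudocounts, filters and scalings, no trend, the 6 samples compared, replicate blocks and samples left out.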

Additional observations from a re-analysis of the deposited data

How the results depend on the processing

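The count of members called in RV was 1 as reported and 2 (Cdkn1a and Rgcc) with a pseudocount of 0.5 or 0.1, a filter at a mean of 1 or 5 TPM, no trend, quantile or upper quartile scaling, no mitochondrially encoded genes, only the 6 samples compared, both WT-PLN replicate 1 samples left out, or, chosen after seeing the data, these and RV R14del-PLN replicate 3 left out. The count in LV was 2 as reported and 1 with no filter, where more genes were tested. With 1 sample left out at a time, it ran from 1 to 2 in LV and from 1 to 2 in RV, where it was 2 without LV WT-PLN replicate 1 or 2. Between the ventricles and for the interaction it was 0 in all alternatives run. With the replicate block, which the correlations between genotypes (-0.0209 to 0.219) do not bear out as pairs, 2 members were called in RV, with Cdkn1a at a limma adjusted p of 0.0124, and with genotype and replicate number as a random block, which the labels do not tie to hearts, also 2 (limma adjusted p = 0.0397, correlation within blocks 0.0885). The blocks changed no other member's call. Over all tested genes, 65 were called in LV (12 higher) and 34 in RV (9 higher) as reported, 119 and 62 with the replicate block, 22 and 17 with no filter, 104 (39 higher) and 85 (29 higher) with quantile normalization, 99 (35 higher) and 88 (32 higher) with upper quartile scaling, 95 and 73 (31 higher) without mitochondrially encoded genes, 231 and 88 without both WT-PLN replicate 1 samples and 169 and 66 without RV R14del-PLN replicate 3 as well. The LV count was 153 without LV WT-PLN replicate 1, 20 without replicate 2 or 3, and 19 and 27 without LV R14del-PLN replicate 1 and 2. The RV count was 14 and 17 without RV WT-PLN replicate 2 and 3, and 20 without RV R14del-PLN replicate 3.

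Of 1320 member values under alternatives, 1256 kept direction and call, 15 gained and 5 lost a call (all Cdkn1a), and 44, none of them called, changed sign. With quantile and upper quartile scaling, the log2 fold change of Ccnd2 in LV became 0.090 and 0.092, Mdm2 between the ventricles 0.077 and 0.074 in WT-PLN and 0.028 and 0.016 in R14del-PLN, and the interactions of Mdm2 -0.049 and -0.058 and of Ccnd2 -0.011 and -0.012. That of Gadd45a was -0.015 with quantile normalization. Without mitochondrially encoded genes, Mdm2 between the ventricles was 0.019 and 0.079. Without both WT-PLN replicate 1 samples, Mdm2 was -0.12 in LV and -0.034 in RV and the Cdkn1c interaction 0.029. With RV R14del-PLN replicate 3 also left out, these were -0.12 for Mdm2 in LV and 0.11 for Cdkn1c, and the Gadd45a interaction was -0.0063. The cause was not tested. With 1 sample left out at a time, Mdm2 ranged from -0.13 to 0.11 in LV, -0.13 to 0.17 in RV and -0.27 to 0.071 between the ventricles of R14del-PLN hearts. Ccnd2 ranged from -0.093 to 0.040 in LV and -0.22 to 0.24 in RV, Ccnd1 from -0.51 to 0.0063 in RV, Cdkn1b from -0.048 to 0.16 between the ventricles of WT-PLN and Gadd45b from -0.36 to 0.015 of R14del-PLN hearts. Interactions ranged from -0.093 to 0.49 for Cdkn1a, -0.19 to 0.026 for Cdkn1c, -0.023 to 0.22 for Gadd45a, -0.22 to 0.019 for Gadd45g, -0.15 to 0.18 for Mdm2, -0.19 to 0.50 for Ccnd1 and -0.20 to 0.26 for Ccnd2.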
